A study of Lumnitzera littorea with 6 samples.

Results

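In the mangrove Lumnitzera littorea, 106 gene models of the seedlings that were already expressed at the control temperature stood at least 4-fold higher under chilling. These boosted genes took 9.07% ± 1.07 of all counts in chilled seedlings, against 0.821% ± 0.229 in control seedlings (SD, n = 3 libraries each). They are 106 of the 26139 gene models in the count table, or 0.406%. Their level is given as CPM, the count of a gene divided by the total of its library and multiplied by 1000000. A gene was chosen when it had at least 10 CPM in every control library and when its lowest chilling CPM was at least 4 times its highest control CPM. All 6 libraries were therefore used to choose the genes, and the differences between chilling and control below describe what was chosen and are not tested. Of the 11280 gene models that met the floor of 10 CPM, 0.94% met the fold.

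Chilled seedlings stood at 8°C in the day and 5°C in the night, for a time that the labels do not give. Control seedlings stood at 25°C in the day and 23°C in the night for 48 h. All seedlings were wild type and 1 year old under 12 h of light per day, and each group has 3 libraries of RNA from leaves, shoots and roots. The organs' shares are not stated, so other organ shares cannot be told apart from changes inside organs, nor more cells of a type from more RNA per cell. Whether replicate libraries stem from different plants is not stated either.

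Plants of warm coasts are often injured by temperatures well above freezing, because cold stiffens membranes and slows enzymes while light still reaches the leaves. In model plants such as Arabidopsis, cold activates transcription factors of the CBF family, which switch on genes for protective proteins, membrane lipid enzymes and sugar metabolism. The count table gives identifiers without gene names, so the function and the sequence of the genes are not analysed here. Identifiers have the form gene.evm.model followed by 2 numbers.

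Library totals ranged from 27982493 to 31610174 counts under chilling and from 36161485 to 41203847 in control. The 106 genes are well covered, since no gene had fewer than 1661 counts in a chilling library or 368 counts in a control library. A 95% Wilson interval on the share of counts they hold in a library reached at most 0.0111 percentage points to each side and covers counting error only. In these genes 2 libraries stood apart from the rest of their group. Chilling replicate 3 was the lowest chilling library for 73 of the 106 genes, and control replicate 1 was the lowest control library for 75 of them.

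The boosted genes held 9.92%, 9.43% and 7.87% of all counts in chilling replicates 1, 2 and 3. In control replicates 1, 2 and 3 they held 0.564%, 0.894% and 1.00%. The groups were far apart, as the lowest chilling share was 7.84 times the highest control share. The ratio of the mean shares was 11.1, and it lay between 9.56 without control replicate 1 and 12.4 without control replicate 3. Leaving out a chilling library gave ratios of 10.5 to 11.8. Shares sum to a fixed total, so the gain of 8.25 percentage points is also the net loss of the other gene models. These held 90.9% of counts under chilling and 99.2% in control. Those of them above the control floor fell further, from 94.4% in control to 80.3% under chilling, so those below it gained share.

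The gain of the boosted genes can be set beside the increases of all gene models. Between the group means, 8898 gene models had a higher CPM under chilling, and their increases sum to 339746 CPM. The 106 boosted genes, 1.19% of those gene models, hold 82519 CPM or 24.3% of that sum. They were chosen for a large rise, so a share of the sum above their share in number follows from the choice. The other gene models above the control floor had a median fold of 0.74 under chilling. With the boosted genes taken out of the library totals this median was 0.806. The level of this median rests on scaling by library totals: with trimmed mean of M-values (TMM) factors in edgeR, which allow for changed composition, the median log2 fold change of all gene models above the floor was -0.11.

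**Figure D1:**
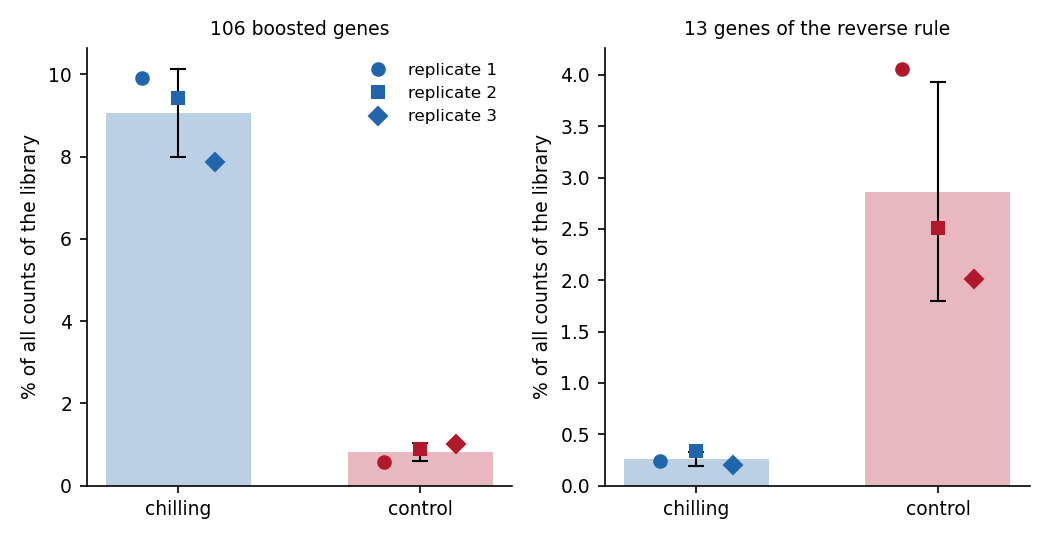
Share of all counts of a library (y axis, percent) held by the 106 boosted genes (left) and by the 13 genes of the reverse rule (right), in chilling and control libraries; bars are means, error bars are SD (n = 3) and symbols are the libraries. The boosted genes sit between 7.87% and 9.92% under chilling and between 0.564% and 1.00% in control, and the genes of the reverse rule sit between 0.2% and 0.333% under chilling and between 2.02% and 4.06% in control.

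The reverse rule found far fewer genes, a comparison of counts and not of shares of the gene models above each floor. Only 13 gene models had at least 10 CPM in every chilling library and a lowest control CPM at least 4 times their highest chilling CPM. They held 0.241%, 0.333% and 0.2% of counts in chilling replicates 1, 2 and 3, and 4.06%, 2.51% and 2.02% in control replicates 1, 2 and 3. Their control share was 11.1 times their chilling share, and they lost 2.61 percentage points between the group means. Control replicate 1 was thus highest in the genes of the reverse rule and lowest in the boosted genes, while control replicate 3 was the opposite.

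The boosted genes stood near the top of the ranking under chilling and far lower in it in control. Ranked by mean CPM among all gene models, their median rank was 228.5 under chilling and 5831 in control. Of the 10 most abundant gene models, 6 were boosted genes under chilling and 0 in control. Among the first 100 there were 28 under chilling and 0 in control, and among the first 1000 there were 90 under chilling and 10 in control. The highest rank of a boosted gene was 3 under chilling and 118 in control. These are shares of reads and not levels per length, since gene lengths were not used, and a long transcript gives more reads than a short one at equal copy number.

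**Figure D2:**
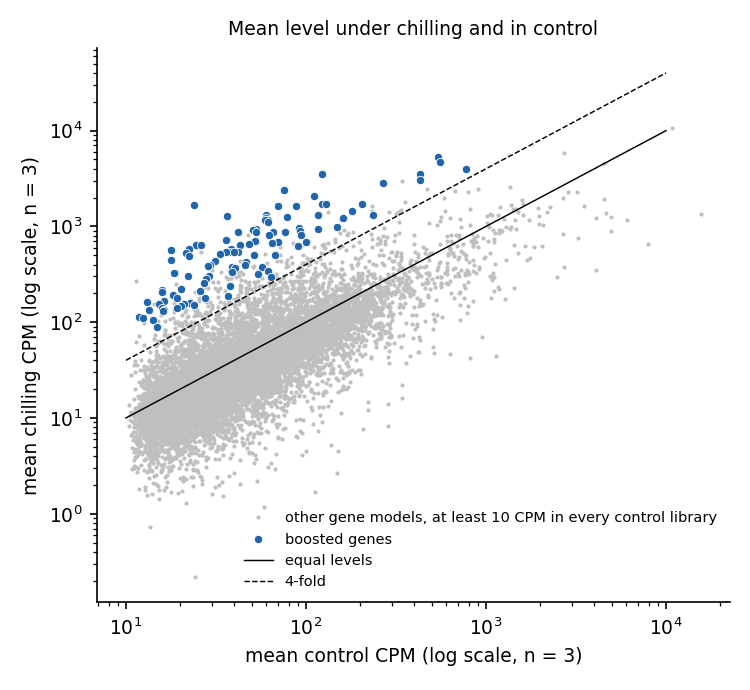
Mean CPM under chilling (y axis) against mean CPM in control (x axis), both on log scales (n = 3 libraries each), for the 106 boosted genes (blue) and the other gene models with at least 10 CPM in every control library (grey); lines mark equal levels and 4-fold. Boosted genes occur from a control mean of 11.9 to 773 CPM and lie between 88.9 and 5360.2 CPM under chilling, while most grey points lie at or below the line of equal levels.

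The 6 boosted genes with the largest gains are also the 6 among the chilling group's first 10. The gene model with the largest gain was gene.evm.model.94.99, with 5599.8, 5045 and 5435 CPM in chilling replicates 1, 2 and 3 and 294, 396 and 926 CPM in control replicates 1, 2 and 3. Its mean was 5360.2 ± 285 CPM under chilling and 539 ± 339 CPM in control (SD, n = 3), a fold of 9.95. The chilling libraries nearly coincide, while control replicate 3 lies well above the other controls.

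The next gene model by gain, gene.evm.model.93.217, had 4459, 4242 and 5325 CPM under chilling and 329, 761 and 574 CPM in control. For gene.evm.model.12.41 the values were 4198, 4233 and 3539 CPM under chilling and 878, 820 and 620 CPM in control. This is the boosted gene with the highest control mean, and its fold of 5.16 is among the smaller ones. Its lowest chilling value was 4.03 times its highest control value, close to the threshold.

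By contrast, gene.evm.model.93.252 had a far lower control level, with 4943, 2502 and 3133 CPM under chilling and 26.8, 143 and 198 CPM in control. Its fold was 28.8, and both groups spread widely. The gene model gene.evm.model.0.929 had 3259, 4289 and 3059 CPM under chilling and 240.0, 483 and 572 CPM in control. The last of these genes, gene.evm.model.3.148, had 3407, 2780.4 and 2961 CPM under chilling and 334, 466 and 483 CPM in control. In each of these genes the rule itself sets the chilling libraries well above the controls. In all but gene.evm.model.12.41, control replicate 1 was the lowest control library.

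The rise was uneven in amount. Ranked by gain, 6 genes held the first 25% of the summed gain, 18 held 50%, 41 held 75% and 65 held 90%. The leading gene alone held 5.84% and the 53 genes with the smallest gains held 16.5%. Unevenness of level was, however, no greater under chilling than in control. The Gini coefficient of CPM across the 106 genes, which is 0 when all genes are equal and near 1 when a single gene holds everything, was 0.505, 0.499 and 0.548 in chilling replicates 1, 2 and 3. In control replicates 1, 2 and 3 it was 0.575, 0.576 and 0.574. All 3 chilling values lie below all 3 control values.

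The order of the genes was largely kept. Across the 106 genes, mean chilling CPM and mean control CPM had a Spearman correlation of 0.84, and across the 11280 gene models above the floor it was 0.749. Both are descriptions across genes of the same libraries, in which gene length is shared by both values, and the fold threshold ties the levels of the chosen genes.

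The fold of mean CPM had a median of 10.6, with quartiles of 8.21 and 16.4 and extremes of 4.61 and 70.7. Of the 106 genes, 84 had a fold of at least 8 and 28 had a fold of at least 16. With TMM scaling in edgeR, the median log2 fold change of these genes was 3.71, with a range of 2.53 to 6.47, against -0.02 over all 19487 genes tested.

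Every one of the 106 genes was higher under chilling in that fit (edgeR quasi-likelihood test, adjusted p under 0.05), where 16.2% of all tested genes were, and 14.8% of those above the control floor. The rule used the same contrast, so this count adds no support. All 106 have by construction every chilling value above every control value, which holds for 14% of the gene models above the floor.

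The fold did not climb with the level in control. Divided into 5 classes of 21 or 22 genes by mean control CPM, the boosted genes had median folds of 10.1, 13.4, 13.6, 13.3 and 8.43 from the lowest to the highest class. The class with the highest control level, from 91.9 to 773 CPM, had the smallest median fold but held 48.2% of the summed gain. The class with the lowest level, from 11.9 to 20.2 CPM, held 5.34%. Mean control CPM is also the divisor of the fold, so classes and folds are not independent, and the pattern was not tested.

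Chilling libraries differed in how far these genes rose. Over the control mean, the median fold was 11.9 in chilling replicate 1, 10.96 in replicate 2 and 8.70 in replicate 3. Replicate 3 was lower along most of the distribution, and its quartiles were 6.80 and 12.8, against 8.44 and 17.7 in replicate 1 and 7.90 and 18.0 in replicate 2. Chilling replicate 3 was the lowest of its group for 68.9% of the boosted genes but for 22.9% of the other gene models above the floor. Among those others it was the highest for 57.7%, against 19.8% of the boosted genes. These ranks rest on scaling by library totals. They were not taken with TMM factors, which were 0.848, 0.865 and 0.979 in chilling replicates 1, 2 and 3.

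**Figure D3:**
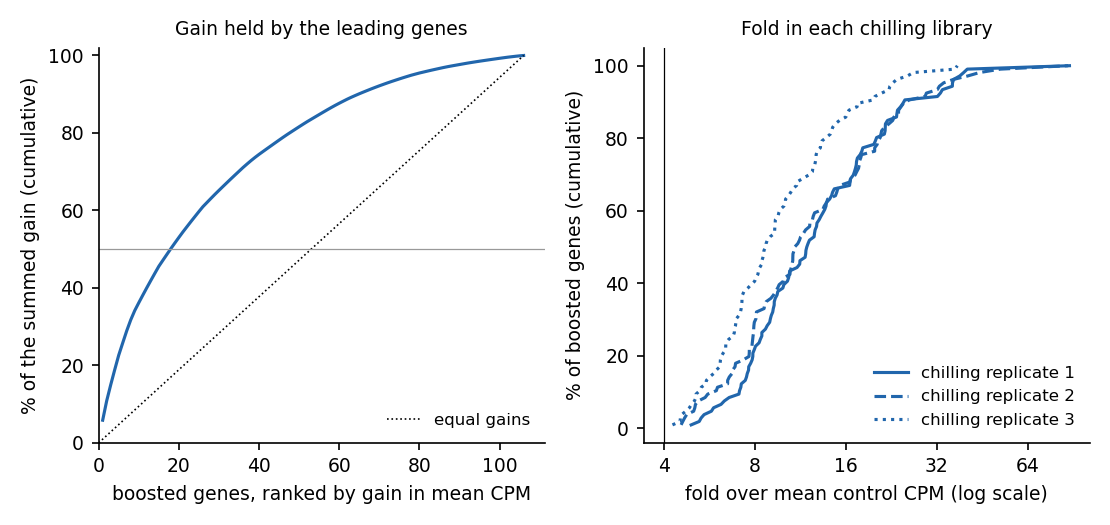
Left, cumulative percent of the summed gain in mean CPM (y axis) held by the boosted genes ranked by gain (x axis), with equal gains dotted; 18 genes hold 50%. Right, cumulative percent of boosted genes (y axis) against the fold over mean control CPM (x axis, log scale) in each chilling library, with a line at 4; replicate 3 lies to the left, with a median of 8.70 against 11.9 and 10.96.

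Some genes had a very wide margin between the groups. The ratio of the lowest chilling to the highest control CPM had a median of 5.73, was under 5 in 34 genes and at least 8 in 26 genes, and reached 16 in 4 genes. The widest margin was that of gene.evm.model.8.734, with 2085, 2064 and 888 CPM under chilling and 15.3, 18.8 and 37.2 CPM in control. Its lowest chilling value was thus 23.9 times its highest control value, and its fold of 70.7 was the largest of the 106. In TMM-scaled terms its log2 fold change was 6.47 with a standard error (SE) of 0.69.

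Second by margin was gene.evm.model.64334.56, with 819, 516 and 562 CPM under chilling and 21.2, 28.3 and 24.1 CPM in control, a margin of 18.2. The third, gene.evm.model.64471.70, had 1436, 1620.3 and 819 CPM under chilling and 47.6, 36.4 and 25.8 CPM in control. In gene.evm.model.7.215 the values were 649.6, 649 and 422 CPM under chilling and 15.02, 25.8 and 12.8 CPM in control. All 4 of these genes had a control mean of at most 36.6 CPM, and in 3 of them chilling replicate 3 was the lowest chilling library.

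Agreement within the chilling group varied from gene to gene. The ratio of the highest to the lowest chilling CPM had a median of 1.68, with quartiles of 1.33 and 2.08, and 77 of the 106 genes stayed under 2. For the other gene models above the floor this median was 1.52, and 80.1% stayed under 2, against 72.6% of the boosted genes. The most even was gene.evm.model.64471.120, with 980, 1001 and 955 CPM under chilling and 65.1, 162 and 220 CPM in control. Next came gene.evm.model.7.1167, with a ratio of 1.07 within chilling, then gene.evm.model.62.4, with 1.09. These 3 genes agreed closely under chilling, and yet their highest control value was 3.37, 2.67 and 2.78 times their lowest.

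The least even was gene.evm.model.26.669, with 533, 872 and 183 CPM under chilling and 27.7, 14.7 and 22.3 CPM in control. In gene.evm.model.78.17 there were 571.5, 924 and 214 CPM under chilling and 18.9, 17.6 and 17.0 CPM in control. The values of gene.evm.model.11.129 were 760, 673 and 199.9 CPM under chilling and 35.8, 39.9 and 37.0 CPM in control. Chilling replicate 3 was the lowest library of its group in all 3, and the last of these pairs nearly constant controls with chilling values that differed 3.80-fold.

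**Figure D4:**
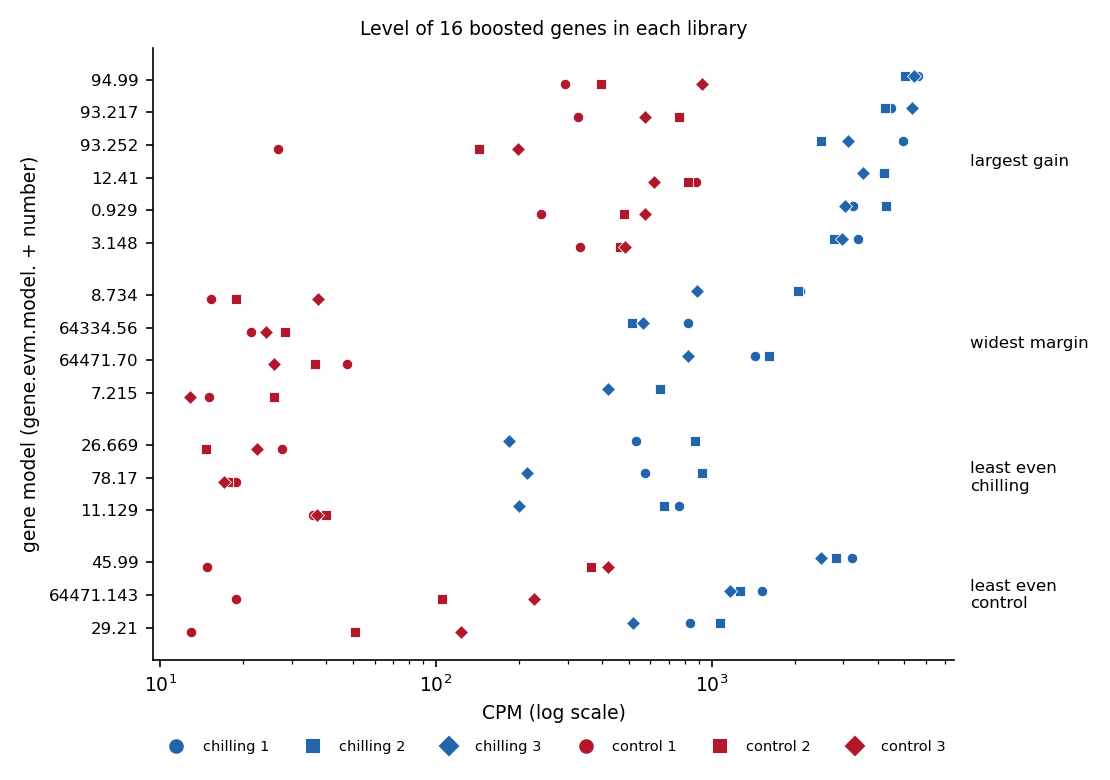
CPM (x axis, log scale) of 16 boosted genes (rows) in the chilling libraries (blue, upper points of a row) and the control libraries (red, lower points), with a symbol for each replicate number. In the 6 genes of largest gain the chilling values lie between 2502 and 5599.8 CPM; in the bottom 3 rows control replicate 1 lies at 12.9 to 18.8 CPM, far below the other controls.

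Control libraries spread more widely in the boosted genes than in the other gene models above the floor. The ratio of the highest to the lowest control CPM had a median of 1.89 in the boosted genes and 1.33 in those others. It stayed under 2 in 52.8% of the boosted genes and in 87.9% of the others. In 63 of the 106 genes the controls spread more than the chilling libraries did. Control replicate 3 was the highest control library for 51 boosted genes, or 48.1%, against 26.4% of the others. Control replicate 1 was the lowest for 70.8% of the boosted genes and for 23.6% of the others. These shares describe genes chosen on the same libraries, and what sets the controls apart was not tested. They also rest on library totals, while TMM factors were 1.15, 1.16 and 1.04 in control replicates 1, 2 and 3.

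In 25 boosted genes, or 23.6%, control replicate 1 was under 0.5 times both other controls, which was so for 0.805% of the other gene models above the floor. This subset was formed after its values were seen. It held 3.65%, 3.24% and 2.80% of counts in chilling replicates 1, 2 and 3 and 0.0879%, 0.292% and 0.356% in control replicates 1, 2 and 3. It made up 36.2% of the summed gain. The remaining 81 genes held 6.27%, 6.19% and 5.07% of counts under chilling and 0.476%, 0.601% and 0.648% in control. The 81 genes kept the same order of control libraries with smaller distances. That control replicate 1 lay closer to the others there follows in part from how the 25 were split off. The median fold of the 81 genes was 10.02, against 13.2 in the 25.

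The widest spread within control was that of gene.evm.model.45.99, named with the next 2 after the values were seen. It had 3237, 2817 and 2494 CPM under chilling and 14.8, 366 and 421 CPM in control, so that the highest control was 28.5 times control replicate 1. Its fold of 10.7 is a mean over very different controls, and its log2 fold change was 3.72 with SE 1.12. It had the weakest call of the 106 genes (edgeR adjusted p = 0.047), which was lost in 7 of 14 alternative fits. Over these fits its adjusted p ranged from 0.000272 with DESeq2 to 0.117 in edgeR without chilling replicate 1. In gene.evm.model.64471.143 the values were 1524, 1265 and 1166 CPM under chilling and 18.8, 105 and 226 CPM in control. For gene.evm.model.29.21 they were 836, 1068 and 517 CPM under chilling and 12.9, 51.0 and 122.9 CPM in control. In these 3 genes control replicate 1 was far below the other controls, and the chilling libraries differed by at most 2.07-fold.

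**Figure D5:**
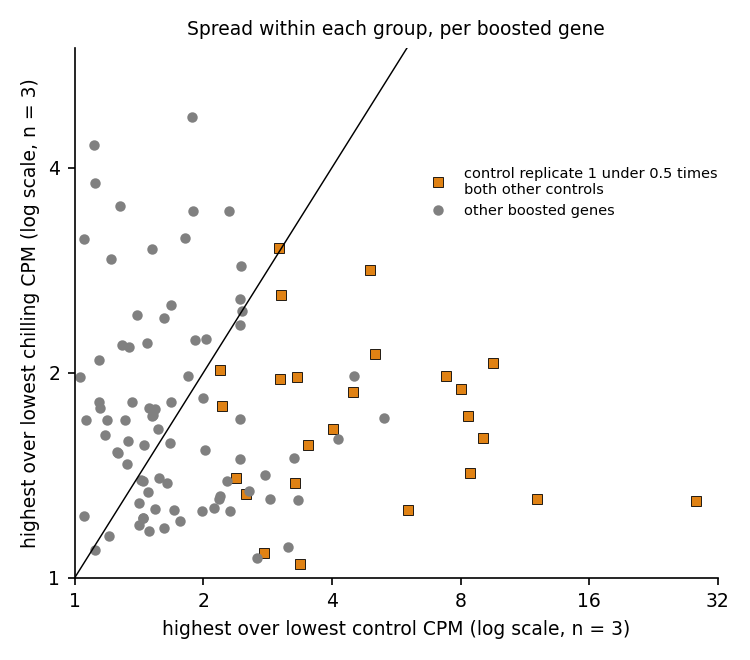
Ratio of the highest to the lowest CPM within chilling (y axis) against the same ratio within control (x axis), on log scales, for each boosted gene (n = 3 libraries per group); the line marks equal spread and squares mark the 25 genes in which control replicate 1 is under 0.5 times both other controls. No gene exceeds 4.75 within chilling, while the control ratio reaches 28.5.

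Genes on either side of a threshold were close in the measure it was set on, while their levels and folds could differ widely. Just inside the fold were gene.evm.model.35.155, with 313, 294 and 272 CPM under chilling and 67.9, 66.6 and 56.4 CPM in control, and also gene.evm.model.28.38, whose margin was 4.02. Just outside it, gene.evm.model.1.156 had 379.95, 442 and 175 CPM under chilling and 38.1, 43.9 and 19.1 CPM in control, and gene.evm.model.1.656 had a margin of 3.99. The folds of means of these excluded genes were 9.87 and 6.26, both within the range of the chosen ones. At the floor, gene.evm.model.45.56 was kept with a lowest control value of 10.05 CPM, while gene.evm.model.83.53 was left out at 9.97 CPM with a margin of 6.27, as was gene.evm.model.64453.656 at 9.90 CPM with a margin of 6.53. The lowest control mean among the chosen genes was that of gene.evm.model.64486.156, at 113 ± 58.2 CPM under chilling and 11.9 ± 0.299 CPM in control (SD, n = 3). It was followed by gene.evm.model.0.791, at 111 ± 56.3 CPM under chilling and 12.4 ± 1.30 CPM in control (SD, n = 3).

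Asking for the fold between every chilling and every control library left out many genes. Among gene models above the floor, 329 or 2.92% had a mean chilling CPM at least 4 times their mean control CPM, and 223 of them did not meet the rule. Of these 223 genes, 149 had a lowest chilling value at least 2 times their highest control value, and in 16 the groups overlapped.

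To read the rise in libraries that had no part in the choice, the rule was applied to 2 chilling and 2 control libraries, and the genes found were measured in the pair left out. Over the 9 possible pairs this chose 127 to 286 genes, and every list held all 106 boosted genes. By the rule over all 6 libraries, these 106 are at least 4-fold higher in any left-out pair. The percentages below therefore describe the lists and add no support for the 106. In the left-out pair 48.3% to 96.9% of the chosen genes were again at least 4-fold higher under chilling, with a median over pairs of 80.9%. Among all gene models above the floor in the choosing libraries, 2.31% to 5.36% reached that fold in the same pair. The median fold of the chosen genes in the left-out pair was 3.72 to 19.3, while it was 0.66 to 0.884 over all gene models above the floor.

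The median fold was lowest in the pair of both replicates 3 and highest in the pair of both replicates 1. Chosen without chilling replicate 3 and control replicate 3, 286 genes were found and 138 of them reached 4-fold in that pair, with a median fold of 3.72. They held 11.7% of counts in chilling replicate 3 and 2.77% in control replicate 3. Chosen without chilling replicate 1 and control replicate 1, 147 genes were found and 141 reached 4-fold there, with a median fold of 19.3. These genes held 11.5% of counts in chilling replicate 1 and 0.652% in control replicate 1. Where the fewest genes were chosen, all 127 were higher in the left-out chilling library than in the left-out control library. This held for 26.7% of all gene models above the floor in the choosing libraries. Where the most were chosen, 271 of 286 were higher, against 41.0% of all gene models above the floor. In every pair the genes that reached 4-fold include the 106 boosted genes. The 9 pairs share libraries and are no independent repeats.

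The numbers of the identifiers were not used by the rule. The boosted genes carry 53 different first numbers, out of 294 that have a gene model above the floor, and 29 of these occur with 1 boosted gene only. The first number with the most boosted genes was 3, with 8 of its 1014 gene models or 0.789%, against 0.406% of all gene models. Higher shares occurred under first numbers with fewer gene models, such as 64471 with 3 of 166 or 1.81% and 64487 with 3 of 190 or 1.58%. What the numbers stand for is not given in the sources used here.

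Consecutive identifiers occurred in 3 pairs of boosted genes, a count given with no test. In the first pair, gene.evm.model.3.1320 had 1253, 1227 and 1452 CPM under chilling and 187, 302 and 219 CPM in control, and gene.evm.model.3.1321 had 641, 779 and 457 CPM under chilling and 92.6, 86.9 and 91.9 CPM in control. In the second, gene.evm.model.3.57 averaged 1445 ± 503 CPM under chilling and 180.2 ± 12.1 CPM in control, and gene.evm.model.3.58 averaged 105 ± 12.1 CPM under chilling and 14.1 ± 3.73 CPM in control (SD, n = 3). In the third, gene.evm.model.9.522 averaged 158 ± 26.5 CPM under chilling and 22.8 ± 5.10 CPM in control, and gene.evm.model.9.523 averaged 164 ± 54.7 CPM under chilling and 13.1 ± 0.212 CPM in control (SD, n = 3). Levels within a pair were close in the third and far apart in the second.

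The gene models numbered directly before or after a boosted gene, themselves not chosen, are described without a test. Of 150 such neighbours, 80 were above the floor, and their median fold was 0.806, against 0.745 for all gene models above the floor. A fold of at least 2 was found in 11 of the 80, or 13.8%, and in 8.56% of all gene models above the floor, the boosted genes included. Neighbour folds ranged from 0.236 to 7.06.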

How the data were processed

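The authors deposited raw read counts of each gene model in the 6 libraries, in 1 table without normalization. The submitters' processing notes name FastQC, HISAT2 and featureCounts. Versions, genome build, annotation and strand setting are not stated there, so reads of overlapping or near-identical genes may be shared or lost. Groups and replicate numbers came from the sample titles, which every column matched.

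CPM was computed from column totals (Python 3.11.15, pandas 2.3.3). The whole table was fitted with edgeR 4.0.16 in R 4.3.3 by the robust quasi-likelihood F test on group alone, after filterByExpr (minimum count 10, total 15) and TMM scaling. P-values were adjusted by Benjamini-Hochberg over 19487 genes at a threshold of 0.05 and reflect differences among replicate libraries, possibly technical ones. SEs were computed from F. The fit was tested on simulated counts. Deviations of same-numbered libraries correlated at 0.051, -0.005 and -0.020, so numbers were not taken to pair libraries. No library repeated another (chi-square per degree of freedom within groups at least 102).

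The genes, rule and lists were chosen with earlier results of these data known. Genes were named by rank in gain (6), margin (4), evenness under chilling (3 and 3) and control level (3 and 2), by nearness to each threshold (2 inside, 2 outside) and by consecutive identifiers. Lists of cold-response genes could not be applied without gene names. Alternatives were other scalings, floors of 5 and 20 CPM, folds of 3 and 8, left-out libraries, a replicate block, other filters, DESeq2 1.42.0 and limma-voom (limma 3.58.1).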

Additional observations from a re-analysis of the deposited data

How the results depend on the processing

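The scaling changed the results modestly. TMM, median-of-ratios and upper-quartile sizes, and totals without the 100 most abundant genes, gave 128, 126, 114 and 120 boosted genes, against 106. Their gains in share were 9.15, 9.08, 8.84 and 8.20 percentage points, against 8.25. In TMM-scaled CPM the summed level of the 106 genes under chilling was 13.8 times that in control, against 11.1 with library totals. The thresholds mattered more. A floor of 20 CPM left 63 genes with a gain in share of 6.35 percentage points, and a floor of 5 CPM gave a gain of 9.37 points. A fold of 3 gave 173 genes, a gain of 10.3 points and a median fold of 8.42, and a fold of 8 left 26 genes, 2.67 points and a median fold of 21.5. Chosen without 1 library, the genes numbered 110 to 192 with a gain of 8.03 to 11.7 points and a median fold of 9.36 to 11.1; the number was 192 without chilling replicate 3 and 165 without control replicate 3. A rule over fewer libraries is easier to meet. Chosen without a pair, they numbered 127 to 286, with a gain of 8.20 to 11.7 points and a median fold of 3.72 to 19.3 in that pair.

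Of the 106 genes, 100 to 106 rose in the fits that left out 1 library, where 1460 to 3319 genes rose over the whole table. With the replicate number as a block, 104 of them rose, while genes that rose over the whole table numbered 1954, against 3160 without the block. Nothing in the labels ties same-numbered libraries together. With limma-voom 105 rose, where 3017 genes rose over the whole table. With DESeq2 all 106 rose, where 4277 did over the whole table. With each other scaling or filter all 106 rose too, where 2300 to 3226 did over the whole table. The rule used the same contrast, so these counts of boosted genes add no support. No gene named here changed direction in the 14 alternative fits, and 16 of 476 combinations of gene and fit lost the call. The named genes met the rule or lay just outside it, so their kept direction was largely set by the choice.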
